A study of Mus musculus with 36 samples.

Results

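The 31 genes described here make cholesterol and fatty acids or control their making. They were chosen by symbol and found by Ensembl identifier among the 49585 genes of each table, and all 31 were present. Of these, 23 belong to the sterol pathway: Acat2, the mevalonate and isoprenoid enzymes, the enzymes from squalene to cholesterol, the control genes Srebf1, Srebf2, Scap and Insig1, and the sterol carrier Stard4. The other 8 (Acly, Acaca, Fasn, Elovl6, Scd1, Scd2, Fads1 and Fads2) make, lengthen or desaturate fatty acids. All 31 passed the filter on low counts.

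RNA was sequenced from mouse embryonic fibroblasts (MEFs), cultured connective tissue cells of the embryo, labelled Tbk1 N129D1, with 0, 1 or 2 N129D alleles of Tbk1, a kinase of innate immune signalling. Wild-type cells (WT, 0 N129D alleles, 3 lines), heterozygous cells (het, 1 N129D allele, 4 lines) and homozygous cells (hom, 2 N129D alleles, 3 lines) were left untreated or received pI:pC, written poly(I:C) here, a synthetic double-stranded RNA, or antimycin with oligomycin (AO), which block mitochondrial electron transport and ATP synthase. Treatment lasted 4 h. Each line gave 1 library per condition, 30 in all, and the WT line E1.5 gave 6 more, at high and at low cell density in each of the 3 conditions. Values are given in the order E1.5, E2.1, E2.7 for WT, E1.3, E2.5, E2.6, E2.8 for het and E1.4, E2.2, E2.9 for hom. The labels do not say what E1 and E2 stand for, nor which cell numbers the densities were. P-values of the fit with 1 coefficient per group treat the libraries as independent and measure the spread between lines. Those with line as a block measure the spread of the changes within lines. Those for density measure the spread left between libraries of 1 line once density and treatment are fitted, with 1 library per density and treatment.

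As background, cholesterol and fatty acids are both built from cytosolic acetyl-CoA. Sterol synthesis runs through mevalonate, isopentenyl units and squalene to lanosterol, which is trimmed to cholesterol in steps of which several use molecular oxygen. The transcription factors SREBP2 (gene Srebf2) and SREBP1 (Srebf1) are held in the endoplasmic reticulum by Insig proteins and are carried by Scap to the Golgi for cleavage when membrane sterol is low. SREBP2 is best known for sterol genes and SREBP1 for fatty acid genes, and promoters of both groups combine sterol regulatory elements with boxes for the partner factors NF-Y and Sp1.

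Promoter windows were taken from RefSeq on GRCm38.p6, the assembly called mm10, from 250 bases before to 50 bases after each start. Of the 31 members, 24 had at least 1 window. Scd1, Scd2, Sqle, Fdps, Fdft1, Fads1 and Stard4 had none in the table. The 250 bases before the start are shown for 4 genes: Insig1, which had the largest rise under poly(I:C), Hmgcs1, which moved in opposite directions under the 2 treatments, Msmo1, which had the largest rise under AO, and Fasn, a fatty acid gene. The stretches lie at chr5:28071162-28071411 (plus strand), chr13:119690101-119690350 (plus strand), chr8:64733579-64733828 (minus strand) and chr11:120824548-120824797 (minus strand) and are written 5′ to 3′ on the gene's strand. Capitals mark matches to the sterol regulatory element letters CACNCCAC and to the NF-Y box CCAAT on either strand. In Fasn, 2 CCAAT matches on opposite strands overlap.
Insig1: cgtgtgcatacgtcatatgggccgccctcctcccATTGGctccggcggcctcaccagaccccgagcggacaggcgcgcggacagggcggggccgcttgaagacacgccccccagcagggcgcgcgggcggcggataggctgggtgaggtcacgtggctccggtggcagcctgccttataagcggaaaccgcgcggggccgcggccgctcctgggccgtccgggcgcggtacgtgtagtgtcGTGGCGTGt
Hmgcs1: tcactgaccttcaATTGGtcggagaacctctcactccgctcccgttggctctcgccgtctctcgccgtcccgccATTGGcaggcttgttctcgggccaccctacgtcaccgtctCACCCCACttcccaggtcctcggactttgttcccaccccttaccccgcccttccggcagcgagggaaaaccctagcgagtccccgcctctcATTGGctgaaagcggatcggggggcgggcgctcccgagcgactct
Msmo1: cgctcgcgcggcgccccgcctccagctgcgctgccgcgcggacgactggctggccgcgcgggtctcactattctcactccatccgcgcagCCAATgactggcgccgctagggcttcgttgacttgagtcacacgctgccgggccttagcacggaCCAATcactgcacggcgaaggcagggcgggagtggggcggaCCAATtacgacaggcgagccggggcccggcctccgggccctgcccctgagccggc
Fasn: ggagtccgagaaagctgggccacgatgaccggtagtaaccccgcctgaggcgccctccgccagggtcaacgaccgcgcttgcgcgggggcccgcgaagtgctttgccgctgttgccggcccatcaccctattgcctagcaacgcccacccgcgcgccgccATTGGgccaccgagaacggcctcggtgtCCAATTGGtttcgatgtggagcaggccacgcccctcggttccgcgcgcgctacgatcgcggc

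Over the whole windows, CCAAT was found in 17 of the 19 sterol genes with an entry (89.5%) and in 2 of the 5 fatty acid genes (40%), against 41.1% of all 27025 genes in the table. The Sp1 box GGGCGG was found in 18 of 19 sterol genes (94.7%) and 2 of 5 fatty acid genes (40%), against 38.2% of all genes. CACNCCAC was found in 3 of 19 sterol genes (15.8%: Insig1, Hmgcs1 and Acat2) and in none of the 5 fatty acid genes, against 7.12% of all genes. In Insig1 it began 9 bases before the start, and in Hmgcs1 136 bases before it. Both strands were searched, and the counts describe letters only.

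Libraries without a density label held 3689144 to 14879227 counts, those at high density 16474011 to 22756870 and those at low density 5391393 to 6307963. Counts of single members ran from 25 (Tm7sf2) to 90187 (Scd2). The summed level of 9 fibroblast markers was 4875 to 7676 CPM (counts scaled by library size, the unit of all levels here) in the 10 untreated lines. It was higher under poly(I:C) in 10 of 10 lines (6235 to 9570 CPM) and lower under AO in 10 of 10 (3178 to 6471 CPM). The sum of 7 adipocyte markers, of which 2 were at 0 in every library, was 4.28 to 8.77 CPM untreated, 2.31 to 10.1 CPM under poly(I:C) and 9.46 to 15.2 CPM under AO, where it was higher in 10 of 10 lines. Most of this sum was the single gene Pparg, which in WT lines went from 4.61, 4.70 and 5.43 CPM to 10.1, 11.3 and 12.4 CPM under AO. Fabp4 moved both ways between lines, and Adipoq, Plin1 and Lep were at 0 in most libraries. The sums of 6 chondrocyte and 5 neural markers were lower under AO in 10 of 10 lines and higher under poly(I:C) in 9 and 10. The part of other cells in the members' treatment changes was not tested. A pair of lines stood apart. The het line E2.6 had the lowest untreated level of the 10 lines for 28 of the 31 members (20 of 23 sterol genes), while it was lowest for 16.2% of all genes tested, and its median sterol change under poly(I:C) was 0.01 on the log2 scale, against 0.34 to 0.64 in the other 9 lines. The hom line E1.4 was lowest for 25.8% of all genes and for 2 members, and its median fatty acid change under AO was -0.51, against -0.32 to -0.01 in the other 9. Summed over 9 macrophage markers, of which none was at 0 in every library, the mean level was 40.1 CPM in E2.6 and 178 CPM in the hom line E2.9, against 3.46 to 7.86 CPM in the other 8 lines. E2.6 also had the highest mean sum of chondrocyte markers, 205 CPM against 62.4 to 162 CPM in the other 9 lines. Most of it was Col2a1, at 184 CPM in untreated E2.6. Sox9 was lowest of the untreated lines there, at 20.4 CPM, and Acan lay within their range, at 13.3 CPM. The smooth muscle marker Myh11 stood at 14.9 to 19.1 CPM in E2.6, against at most 1.22 CPM in any library of the others. The mean sum of all 5 smooth muscle markers, however, was 3556 CPM in E2.6 and highest in E1.4, at 4305 CPM. E2.9 was lowest for no member in any condition and highest for Lss and Scap in untreated cells. The part of other cells in the E2.6 values was not tested. In such bulk RNA, fewer cells of a type and less RNA per cell cannot be told apart.

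In untreated cells the desaturase Scd2 was the most abundant member for its length. Its median over the 10 lines was 664 CPM per kb of transcript, followed by the farnesyl diphosphate synthase Fdps at 203, the desaturases Scd1 at 139 and Fads1 at 112, and the HMG-CoA synthase Hmgcs1 at 105. Acly, which makes cytosolic acetyl-CoA, stood at 105, Msmo1 at 96.9, Idi1 at 85.6 and Fasn at 81.6 CPM per kb. The lowest were Hsd17b7 at 9.41 and Tm7sf2 at 6.58 CPM per kb, both late enzymes of cholesterol synthesis. Neighbours in this order overlapped: Fads1, Hmgcs1 and Acly ranged over 44.1 to 153, 48.3 to 130 and 71 to 120 CPM per kb. Without E2.6, the coefficient of variation between lines was 5.28% for Fads2 and 6.08% for Scd2 and reached 26.4% for Tm7sf2. With E2.6 it was 21.9%, 23.9% and 30.6%.

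The low values of E2.6 covered both branches. Scd2 was at 1158 CPM there and between 3271 and 4077 CPM in the other 9 untreated lines. Scd1 was at 200 CPM against 575 to 784 CPM, and Insig1, the sterol-sensing anchor of SREBP, at 56.1 CPM against 152 to 203 CPM. Fdps stood at 0.328 times the median of the other 9 lines and Fasn at 0.573 times it. Only Scap, Ebp and Hsd17b7 were not lowest in E2.6. Its values lie to the left of the other lines in the plot of untreated levels.

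**Figure D1:**
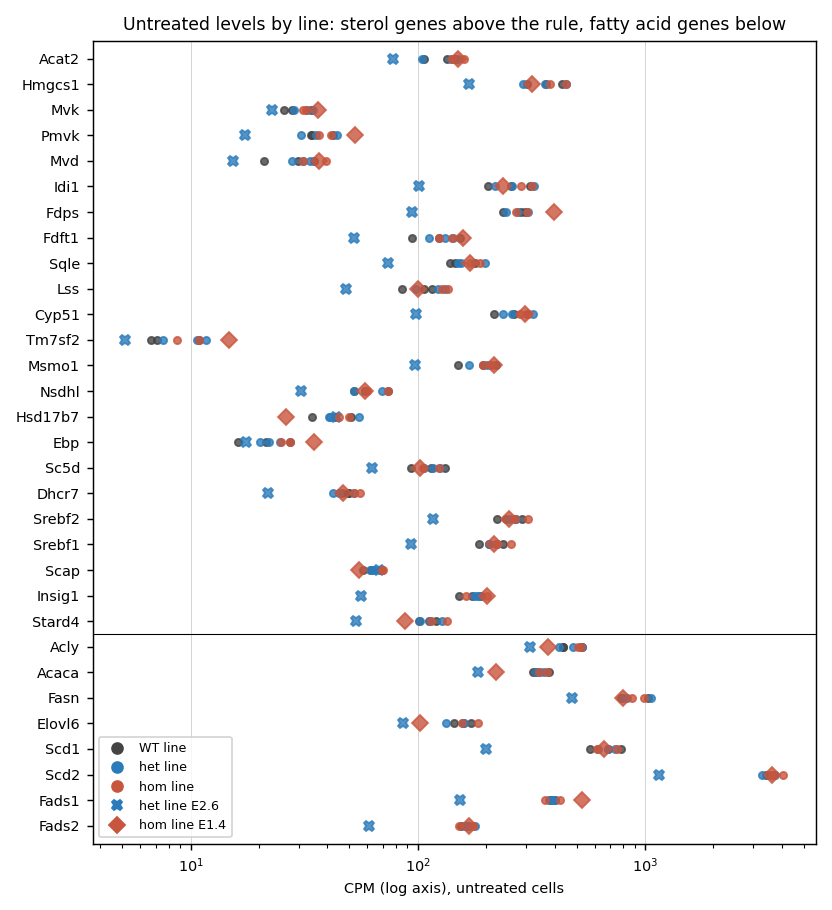
Level of each member in untreated cells of the 10 lines, in CPM on a log axis, with sterol genes above the horizontal rule and fatty acid genes below it. Points are single lines coloured by genotype, with het line E2.6 as crosses and hom line E1.4 as diamonds. E2.6 is lowest for 28 of the 31 genes, for example 1158 CPM for Scd2.

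Poly(I:C) raised the members together, in both branches. Averaged over the genotypes, all 31 log2 changes were above 0, from 0.08 (Elovl6) to 1.15 (Insig1), with a median of 0.52 over the sterol genes and 0.44 over the fatty acid genes, against 0.00 over all genes tested. In the fit with 1 coefficient per group, 11 members rose and none fell at an adjusted p under 0.05 (9 sterol and 2 fatty acid genes), while 9.91% of all genes rose. Libraries of the same line resembled each other, and with line as a block 29 members rose (22 sterol and 7 fatty acid genes), while 19.8% of all genes rose. The members that did not pass with the block were Ebp and Elovl6. Leaving out E2.6 alone also gave 29 that rose, against 11.2% of all genes.

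The count of 11 changed with single lines. It was 29 without E2.6, 10 without E1.4, 8 without E2.8, 7 without E2.1 or E2.5, and 6 without E1.5, E2.7, E1.3, E2.2 or E2.9. The 6 members that passed whichever line was left out were Fasn, Hsd17b7, Mvd, Mvk, Insig1 and Lss. With the block, 28 to 30 members rose whichever line was left out. Of these fits, the share of all genes is given only for that without E2.6 and without the block.

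Insig1 rose most. Its untreated levels were 174, 152 and 190 CPM in the WT lines, 186, 182, 56.1 and 176 CPM in the het lines, and 202, 203 and 164 CPM in the hom lines. With poly(I:C) they were 501, 319 and 417 CPM in WT, 507, 314, 51.8 and 361 CPM in het, and 519, 420 and 307 CPM in hom. The third het value in each set is E2.6, the 1 line of 10 that did not rise, and apart from it the treated and untreated lines did not overlap. The log2 change was 1.15 (SE 0.32, adjusted p = 0.0105), a 2.21-fold rise, and 1.06 (SE 0.11, adjusted p = 7.22e-07) with line as a block.

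Among the mevalonate enzymes, Hmgcs1, which condenses acetyl-CoA units to HMG-CoA, was at 365, 301 and 433 CPM in untreated WT lines, 365, 290, 167 and 449 CPM in het and 319, 451 and 382 CPM in hom. Treatment took it to 626, 483 and 754 CPM in WT, 662, 434, 160 and 742 CPM in het and 665, 769 and 642 CPM in hom. It was higher in 9 of 10 lines, all but E2.6, by a log2 change of 0.75 (SE 0.25, adjusted p = 0.0329). Mevalonate kinase, Mvk, moved from a median of 31.8 CPM (22.8 to 36.5) to 46.2 CPM (24.7 to 63.3), a log2 change of 0.60 (SE 0.16, adjusted p = 0.00792). Mvd, the decarboxylase that yields isopentenyl diphosphate, moved from 31.3 CPM (15.4 to 39.3) to 56.9 CPM (17.8 to 76.2), by 0.84 (SE 0.22, adjusted p = 0.00757). Pmvk, the kinase between them, changed by 0.43 (SE 0.22, adjusted p = 0.166) and passed with the block (adjusted p = 0.00059). Without E2.6 it also passed without the block (adjusted p = 0.0333). Acat2, which joins acetyl-CoA units ahead of Hmgcs1, changed by 0.47 (SE 0.18, adjusted p = 0.0706, with the block 7.11e-05).

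In the isoprenoid and squalene steps, the changes in the fit of all 10 lines passed only with the block. Without E2.6 they also passed without it (adjusted p = 0.00243 for Idi1, 0.000257 for Sqle, 0.00252 for Fdft1 and 0.0293 for Fdps). Idi1, the isopentenyl diphosphate isomerase, had a median of 259 CPM untreated (101 to 326) and 414 CPM under poly(I:C) (97.8 to 510). Its log2 change was 0.63 (SE 0.27, adjusted p = 0.105), and with the block 0.59 (SE 0.07, adjusted p = 3.8e-06). Squalene epoxidase, Sqle, went from 162 CPM (74.1 to 198) to 246 CPM (67.5 to 295), a change of 0.56 (SE 0.21, adjusted p = 0.0652), with the block 0.52 (SE 0.06, adjusted p = 8.31e-07). Both were higher in 9 of 10 lines and lower in E2.6. With the block, the squalene synthase Fdft1 rose by 0.51 (adjusted p = 3.63e-06) and Fdps by 0.34 (adjusted p = 0.00211).

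Of the enzymes that turn squalene epoxide into cholesterol, Lss, which closes the sterol rings, rose in all 10 lines. Its median moved from 111 CPM (48.4 to 136) to 213 CPM (58.9 to 234), a log2 change of 0.83 (SE 0.23, adjusted p = 0.0123). The lanosterol demethylase Cyp51 rose by 0.71 (SE 0.25, adjusted p = 0.0434), from 274 CPM (98.6 to 323) to 451 CPM (103 to 520). Msmo1, the sterol C4 methyl oxidase, rose by 0.65 (SE 0.21, adjusted p = 0.0267), from 198 CPM (97.4 to 220) to 332 CPM (101 to 352). Hsd17b7, a sterol ketone reductase, rose by 0.64 (SE 0.17, adjusted p = 0.00737), from 43.4 CPM (26.4 to 54.9) to 63.3 CPM (43.9 to 81.6). In all 4, the lines other than E2.6 did not overlap between the conditions. Tm7sf2, Nsdhl, Dhcr7 and Sc5d changed by 0.55, 0.40, 0.42 and 0.26 and, in the fit of all 10 lines, passed only with the block. Without E2.6 they also passed without it (adjusted p = 0.0148, 0.0177, 0.0064 and 0.0432). Ebp changed by 0.22 and passed neither way.

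Among the control genes, Srebf2 had a median of 262 CPM untreated (117 to 305) and 373 CPM under poly(I:C) (144 to 424), and was higher in 10 of 10 lines. Its change was 0.46 (SE 0.20, adjusted p = 0.101), with the block 0.46 (SE 0.08, adjusted p = 0.000122). Srebf1 moved less, from 219 CPM (93.5 to 258) to 264 CPM (87.2 to 295), by 0.25 (SE 0.19, adjusted p = 0.406), with the block 0.23 (SE 0.06, adjusted p = 0.00634). It was higher in 8 of 10 lines, and the 2 conditions overlapped. Scap, the SREBP escort, rose from 65.8 CPM (55.1 to 70.3) to 76.1 CPM (57.6 to 80.3), by 0.20 (SE 0.07, adjusted p = 0.0369). Stard4, which carries cholesterol between membranes, changed by 0.30 (SE 0.20, adjusted p = 0.338, with the block 0.00464).

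In the fatty acid branch, Fasn, the fatty acid synthase, had the smallest p of all members. It stood at 1033, 789 and 787 CPM in untreated WT lines, 1061, 838, 480 and 802 CPM in het and 801, 991 and 874 CPM in hom. Treated with poly(I:C), the WT lines had 1934, 1286 and 1473 CPM, the het lines 1950, 1144, 584 and 1438 CPM and the hom lines 1830, 1777 and 1599 CPM. It was higher in all 10 lines, E2.6 included, by 0.83 (SE 0.18, adjusted p = 0.00176), a 1.78-fold rise. Acly rose by 0.40 (SE 0.13, adjusted p = 0.0338), from 461 CPM (312 to 529) to 633 CPM (280 to 690). The stearoyl-CoA desaturase Scd1 moved from 673 CPM (200 to 784) to 942 CPM (230 to 1127) and was higher in 10 of 10 lines, with a change of 0.48 (SE 0.25, adjusted p = 0.188), with the block 0.46 (SE 0.06, adjusted p = 2.55e-06).

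Scd2 (0.50), Acaca, the acetyl-CoA carboxylase (0.36), and the polyunsaturated fatty acid desaturases Fads2 (0.47) and Fads1 (0.27) rose with the block only. Elovl6, an elongase of saturated chains, was the exception, at 157 CPM in both medians, with a change of 0.08 (SE 0.19, adjusted p = 0.841, with the block 0.446). Its change in E1.4 was 0.60, and the other 9 lines lay between -0.23 in E2.6 and 0.10 in E2.8.

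**Figure D2:**
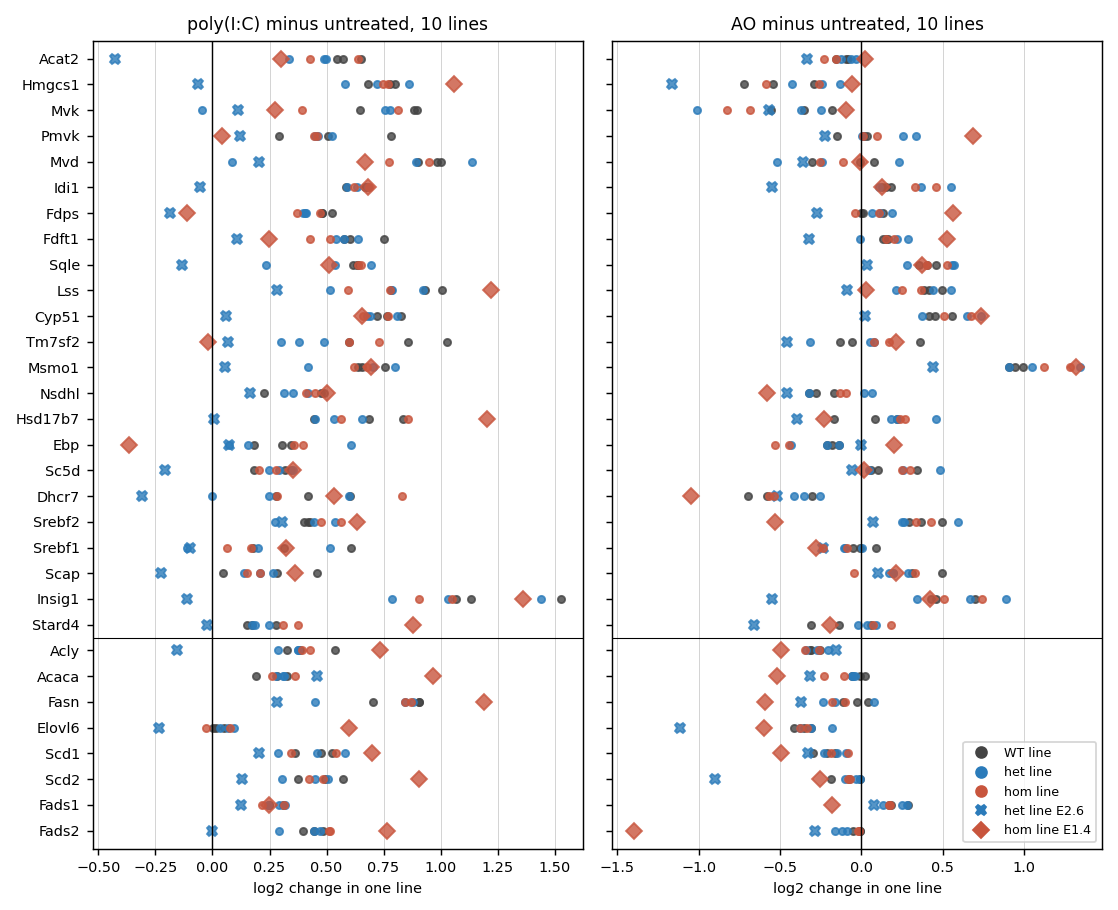
Change of each member in each of the 10 lines, as the difference in log2 CPM between treated and untreated libraries of the same line, for poly(I:C) on the left and AO on the right. Colours give the genotype, crosses het line E2.6 and diamonds hom line E1.4. Insig1 under poly(I:C) runs from -0.11 in E2.6 to 1.53, and Msmo1 under AO from 0.44 in E2.6 to 1.35.

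Within each genotype the number of members that passed depended on how the libraries were fitted and on which libraries were in the fit. With 1 coefficient per group, no member passed in WT, het or hom (edgeR), with 8, 3 and 3 members at an unadjusted p under 0.05 and none called by DESeq2, although 1.29%, 2.24% and 0.554% of all genes rose in them. With the block, 23 members rose in WT (18 sterol, 5 fatty acid), 17 in het (13 and 4) and 22 in hom (15 and 7), against 7.53%, 8.81% and 5.71% of all genes. The median sterol change in the fit without the block was 0.63 in WT, 0.43 in het and 0.51 in hom, and the median fatty acid change 0.43, 0.35 and 0.52. Without E2.6, 5 members rose in het without the block (Insig1, Cyp51, Msmo1, Fasn and Scd2), against 2.81% of all genes. Fitted on the compared groups alone, 14 members rose in WT, and the share of all genes is not given for that fit.

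With the block, Insig1 changed by 1.25 in WT, 0.80 in het and 1.12 in hom (adjusted p = 0.000455, 0.00441 and 0.00192). Fasn changed by 0.84, 0.62 and 0.98 (adjusted p = 0.000231, 0.000775 and 0.000167), and Hmgcs1 by 0.75, 0.52 and 0.86 (adjusted p = 0.00182, 0.00752 and 0.00105). Scd1 rose by 0.45, 0.38 and 0.54, Sqle by 0.63, 0.34 and 0.60, and Idi1 by 0.64, 0.46 and 0.66, each passing in all 3 genotypes. Srebf2 passed in het and hom but not in WT (0.42, adjusted p = 0.0511), and Srebf1 passed in WT only (0.37, adjusted p = 0.0327). Passing in 1 genotype and not in another is not a test of a difference between them. The counts with the block fell to 11 in WT without E1.5 or E2.7 and 14 without E2.1. They fell to 6 in het without E1.3, 8 without E2.8 and 11 without E2.5. Shares of all genes are not given for these fits.

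The members' rise was set beside 4 interferon-response genes, Ifit1, Rsad2, Isg15 and Cxcl10, chosen after member values were seen. After poly(I:C), Ifit1 reached 903, 888 and 1099 CPM in WT lines and 14.2, 34.3 and 47 CPM in hom lines, a log2 difference of -4.93 (SE 0.87, adjusted p = 0.0222). For Rsad2, Isg15 and Cxcl10 the difference was -5.48, -3.76 and -3.12 (adjusted p = 0.0658, 0.0356 and 0.0558). The gap was there before treatment: untreated Ifit1 stood at 143.6, 107.1 and 122.5 CPM in WT and 1.36, 4.89 and 1.64 CPM in hom. For all 4 genes each untreated hom line was below each untreated WT line. Ifit1 changed by 2.65, 3.05 and 3.16 under poly(I:C) in WT lines and by 3.13, 2.74 and 4.61 in hom lines. For each of the 4 genes the changes in WT and hom lines overlapped. The hom changes start near the floor, with untreated Rsad2 at 0, 0.38 and 0.63 CPM, and so depend in part on the prior count of 2. In E2.6, Ifit1 changed by 1.81 under poly(I:C), against 2.65 to 4.61 in the other 9 lines, Isg15 by 0.71 against 0.90 to 2.07, and Cxcl10 by 2.995 against 3.022 to 4.715. Rsad2 changed by 4.25 there, within the 2.63 to 5.06 of the other lines. For the members, no difference between hom and WT passed under poly(I:C). Insig1 reached 501, 319 and 417 CPM in WT and 519, 420 and 307 CPM in hom.

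**Figure D3:**
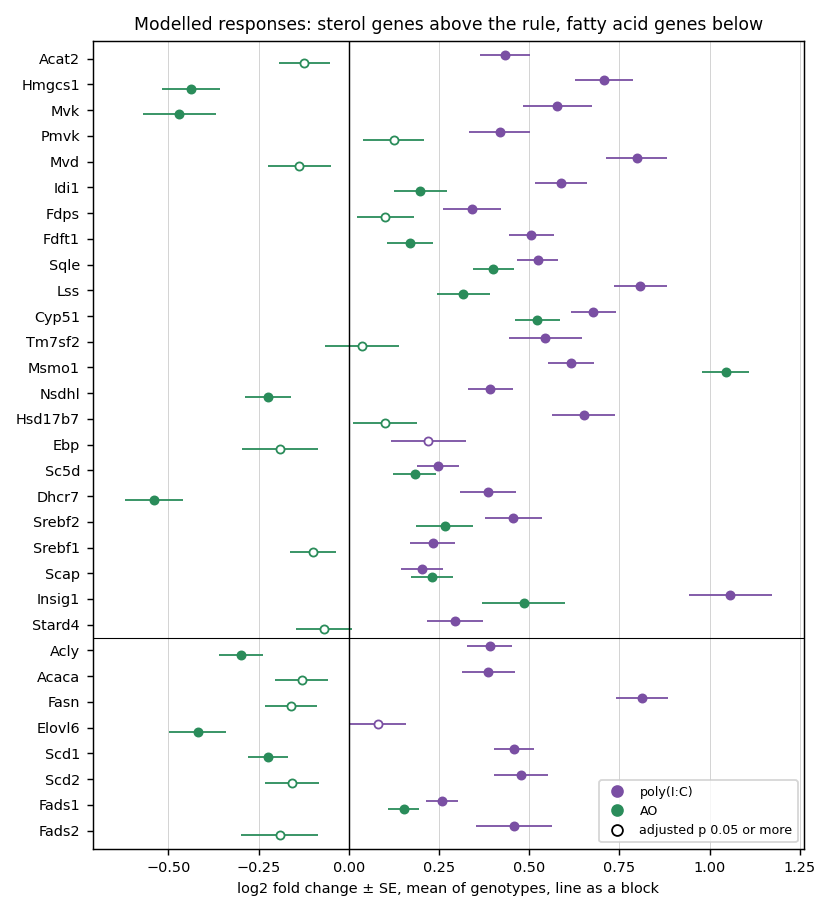
Log2 fold change with its SE for each member, averaged over the genotypes and fitted with line as a block, for poly(I:C) (purple) and AO (green). Filled points have an adjusted p under 0.05. For poly(I:C) 29 points are filled and all 31 lie right of 0, and under AO 11 filled points lie right of 0 and 7 left of it. The untreated libraries are shared by both comparisons.

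Under AO fewer members passed than under poly(I:C), and they moved both ways. Averaged over the genotypes, the median change was 0.14 over the sterol genes and -0.16 over the fatty acid genes, against -0.02 over all genes tested. With 1 coefficient per group, 2 members rose (Msmo1 and Scap) and 2 fell (Mvk and Dhcr7), all in the sterol set, while 17% of all genes rose and 16.7% fell. With line as a block, 11 rose and 7 fell, against 23.6% and 26.8% of all genes. Of these, 10 that rose and 4 that fell were sterol genes, and 1 that rose and 3 that fell were fatty acid genes. Without E2.6, 7 rose and 4 fell in the fit without the block, against 17.8% and 17.6%. Those that rose were Msmo1, Cyp51, Sqle, Insig1, Scap, Lss and Srebf2, and those that fell were Dhcr7, Mvk, Acly and Elovl6. With all lines and without the block, fewer of the members than of all genes passed in each direction. With the block, the share of members that rose was above that of all genes and the share that fell below.

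The count of 4 changed with single lines too. It was 11 without E2.6, and 2 without E1.5, E2.1, E2.7, E2.5, E2.2 or E2.9. Msmo1 passed whichever line was left out, and Scap in all but the fit without E2.7. With the block the count lay between 15 and 22. Apart from the fit without E2.6 and without the block, shares of all genes are not given here.

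Msmo1 rose most. Its levels under AO were 375, 301 and 414 CPM in WT, 418, 317, 132 and 535 CPM in het, and 543, 455 and 470 CPM in hom. Untreated they were 195, 151 and 220 CPM in WT, 201, 169, 97.4 and 210 CPM in het, and 217, 209 and 193 CPM in hom. It was higher in 10 of 10 lines, and apart from E2.6 the conditions did not overlap. The log2 change was 1.08 (SE 0.21, adjusted p = 0.000256), a 2.11-fold rise, and with the block 1.04 (SE 0.06, adjusted p = 1.23e-10).

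The other enzymes of the pathway that use molecular oxygen are Sqle, Cyp51 and Sc5d, a grouping made after their values were seen. Sqle was higher in 10 of 10 lines, at a median of 225 CPM (75.9 to 291) against 162 CPM untreated. Its change was 0.43 (SE 0.21, adjusted p = 0.131), with the block 0.40 (SE 0.06, adjusted p = 7.48e-06). Cyp51 was also higher in 10 of 10 lines, at 421 CPM (100 to 538) against 274 CPM, by 0.56 (SE 0.25, adjusted p = 0.0875), with the block 0.52 (SE 0.06, adjusted p = 8.06e-07). Sc5d, the lathosterol oxidase, changed by 0.20 (SE 0.18, adjusted p = 0.416, with the block 0.0138).

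Lss, which uses no oxygen, changed by 0.35 (with the block 0.32, adjusted p = 0.0012), Idi1 by 0.26 (SE 0.27, adjusted p = 0.506, with the block 0.0297) and Fdft1 by 0.20 (with the block 0.17, adjusted p = 0.0304). The median of Idi1 was 309 CPM (69.3 to 479) against 259 CPM untreated, and the conditions overlapped.

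Of the sterol members, Mvk and Dhcr7 fell under AO in the fit without the block, and Hmgcs1 and Nsdhl with the block only. Mvk, the mevalonate kinase, was lower in 10 of 10 lines, at 20 CPM (15.3 to 34.1) against 31.8 CPM (22.8 to 36.5), by a log2 change of -0.45 (SE 0.16, adjusted p = 0.0324). Hmgcs1 was also lower in 10 of 10 lines. It stood at 250, 183 and 353 CPM in WT, 309, 216, 74.4 and 411 CPM in het, and 306, 300 and 319 CPM in hom under AO. Its change was -0.38 (SE 0.25, adjusted p = 0.269), with the block -0.44 (SE 0.08, adjusted p = 0.000134). Dhcr7, the last reductase on the way to cholesterol in one branch, was lower in 10 of 10 lines, at 34.2 CPM (15.2 to 39.7) against 47.9 CPM (21.9 to 55.7), by -0.52 (SE 0.20, adjusted p = 0.0465). Without E2.6, its 9 lines did not overlap between the conditions. Nsdhl changed by -0.20 and passed with the block (-0.22, adjusted p = 0.00624).

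No change passed either way for Acat2 (-0.11), Pmvk (0.16), Mvd (-0.12), Fdps (0.14), Tm7sf2 (0.04), Hsd17b7 (0.13), Ebp (-0.18) and Stard4 (-0.04). For Fdps, Pmvk and Ebp the line E1.4 stood above all others under AO, at 587, 84.9 and 40.1 CPM, where the next highest lines reached 348, 55.7 and 24.2 CPM.

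Of the control genes, Insig1 was at 233, 210 and 309 CPM in WT, 296, 231, 38.2 and 326 CPM in het, and 271, 289 and 274 CPM in hom under AO. It was above its untreated level in 9 of 10 lines, all but E2.6, and those 9 did not overlap between the conditions. Its change was 0.56 (SE 0.31, adjusted p = 0.183), with the block 0.48 (SE 0.11, adjusted p = 0.00138), and without E2.6 0.58 (adjusted p = 0.000447). Srebf2 changed by 0.30 (SE 0.20, adjusted p = 0.268, with the block 0.00778), at 318 CPM (123 to 410), and was lower only in E1.4. Srebf1 changed by -0.09 (SE 0.19, adjusted p = 0.775, with the block 0.208), at 198 CPM (79.5 to 253). Scap rose from 65.8 to 73.8 CPM (64 to 87.9), by 0.23 (SE 0.07, adjusted p = 0.00994).

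In the fatty acid branch, Acly, Elovl6, Scd1, Scd2 and Fads2 were lower under AO in 10 of 10 lines. Of these, Acly, Elovl6 and Scd1 passed with the block, and Scd2 and Fads2 passed neither way. Elovl6 went from 157 CPM (85.9 to 183) to 126 CPM (39.5 to 141), a change of -0.38 (SE 0.19, adjusted p = 0.126), with the block -0.42 (SE 0.08, adjusted p = 0.000159). Acly went from 461 CPM (312 to 529) to 384 CPM (267 to 426), by -0.30 (SE 0.13, adjusted p = 0.0854), with the block -0.30 (SE 0.06, adjusted p = 0.000386). Scd1 went from 673 CPM (200 to 784) to 579 CPM (159 to 701), by -0.21 (SE 0.25, adjusted p = 0.558), with the block -0.22 (SE 0.06, adjusted p = 0.0021).

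Fasn did not pass, at 956, 777 and 809 CPM in WT, 900, 749, 371 and 846 CPM in het, and 531, 874 and 816 CPM in hom under AO. Its change was -0.15 (SE 0.18, adjusted p = 0.571), with the block -0.16 (SE 0.07, adjusted p = 0.0678). Acaca changed by -0.12, Scd2 by -0.11 and Fads2 by -0.17, none of which passed. Fads1 was the 1 fatty acid gene above 0, by 0.15 (SE 0.19, adjusted p = 0.593, with the block 0.00587). In E1.4, Fads2 dropped from 168 to 63.5 CPM, a log2 change of -1.40, and in the other 9 lines the lowest change was -0.28.

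Within the genotypes, no member passed in WT without the block (edgeR, 2 members at an unadjusted p under 0.05, none called by DESeq2). In het and hom only Msmo1 rose, by 1.05 (SE 0.33, adjusted p = 0.0386) and 1.24 (SE 0.38, adjusted p = 0.0302). Of all genes, 4.23% rose in WT, 6.17% in het and 7.36% in hom. The Msmo1 call was lost in het without E1.3, E2.5 or E2.8 (adjusted p = 0.125, 0.129 and 0.201) and in hom without E1.4, E2.2 or E2.9 (adjusted p = 0.127, 0.133 and 0.158). With the block, Msmo1 changed by 0.95, 0.94 and 1.24 in WT, het and hom (adjusted p = 1.13e-05, 1.51e-06 and 4.35e-07).

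With the block, 5 members rose and 2 fell in WT, 4 rose and 4 fell in het, and 5 rose and 4 fell in hom. The shares of all genes were 11.2% and 11.7% in WT, 12.9% and 14.6% in het, and 14.6% and 15% in hom. Sqle, Cyp51 and Msmo1 rose and Dhcr7 fell in all 3. Hmgcs1 fell in WT (-0.52, adjusted p = 0.0135) and het (-0.49, adjusted p = 0.00642), and its hom value was -0.30 (adjusted p = 0.125). Without E2.6, 3 members rose in het without the block (Msmo1, Cyp51 and Insig1), against 6.48% of all genes, and 8 rose and 2 fell with it, against 12.6% and 13.6%. Leaving out one of the other lines took the total with the block to 2 in WT without E1.5 or E2.1 and 3 without E2.7. It took it to 5 in het without E2.5 or E2.8, and to 4 in hom without E2.2, fits for which no share of all genes is given.

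The 2 branches were set side by side in each line. Under AO the median change of the sterol genes was above that of the fatty acid genes in 10 of 10 lines, by 0.0005 in E2.6 to 0.54 in E1.4. The sterol median was above 0 in 9 lines (0.01 to 0.23) and -0.32 in E2.6, and the fatty acid median was below 0 in all 10 (-0.51 in E1.4 to -0.01 in E2.7). With poly(I:C) both medians were above 0 in all 10 lines. The sterol median was higher in 8 of them, and the fatty acid median was higher in E2.6 (0.13 against 0.01) and E1.4 (0.75 against 0.51). These are descriptions, since the sets were not tested as sets, and both treatments share their untreated libraries.

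**Figure D4:**
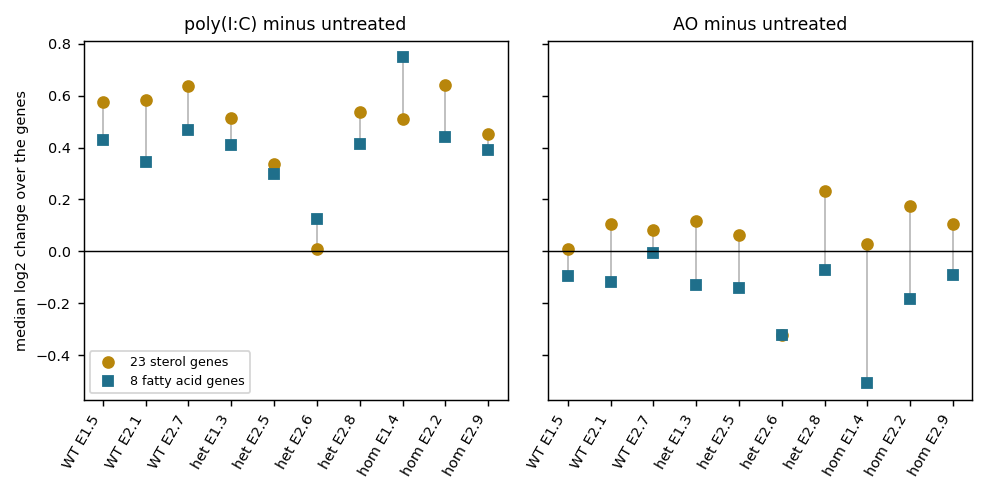
Median log2 change of the 23 sterol genes (circles) and of the 8 fatty acid genes (squares) in each line, for poly(I:C) on the left and AO on the right. Under AO the circles lie above the squares in every line, by 0.54 in E1.4 and almost not at all in E2.6. Under poly(I:C) both lie above 0 in every line.

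The Tbk1 genotype moved no member past the threshold. In hom against WT in each of the 3 conditions, and in het against WT likewise, 0 members passed in edgeR, with 0 at an unadjusted p under 0.05 and 0 called by DESeq2. Few genes of any kind passed: 0.015% and 0.254% of all genes in hom untreated and under poly(I:C), and 0% in the other 4 comparisons. Untreated hom lines were above WT for 26 of 31 members, with a median difference of 0.13 and the highest value for Tm7sf2 (0.49). The smallest p was that of Ebp, with a log2 difference of 0.43 (SE 0.28, adjusted p = 0.976). Under AO the lowest and highest hom differences were -0.38 (Acaca) and 0.62 (Pmvk), and the median was 0.21 over the sterol and -0.10 over the fatty acid genes.

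Het lines were below WT for 27 members untreated, for 31 under poly(I:C) and for 30 under AO, with medians of -0.17, -0.29 and -0.11. Without E2.6 those counts were 7, 19 and 7, and the medians 0.05, -0.02 and 0.09, so the lower het averages rested on this line. The lowest remaining value was that of Dhcr7 under poly(I:C) (-0.19).

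No difference between the genotypes' responses passed either. For the poly(I:C) and AO responses of hom and of het against WT, 0 members passed in edgeR, with 0 at an unadjusted p under 0.05 and 0 called by DESeq2, and 0% of all genes passed. With line as a block 0 members and 0% of all genes passed as well, with 2 members at an unadjusted p under 0.05 for het under poly(I:C). The differences of the poly(I:C) response between hom and WT ran from -0.45 (Tm7sf2) to 0.30 (Stard4) with a median of -0.01, and those of the AO response from -0.33 (Fads2) to 0.37 (Pmvk) with a median of -0.02. The precision was low, with an SE of 0.54 for the poly(I:C) difference of Tm7sf2.

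Sterol genes were higher at high cell density in the 1 line where density was varied. In WT line E1.5, with treatment as a term, 16 members were higher and none lower at high than at low density, against 8.62% of all genes that were higher and 8.41% that were lower. Of these, 14 were sterol genes and 2, Scd1 and Fads1, fatty acid genes. The median difference was 0.25 over the sterol genes, 0.10 over the fatty acid genes and 0.01 over all genes. All come from 1 line with 1 library per density and treatment, and the high-density libraries were also the deeper ones. Depth and density cannot be told apart by group. With all libraries thinned to 5213075 counts, 15 of the 16 members passed, Sc5d did not (adjusted p = 0.0671), and Hsd17b7 did (0.38, adjusted p = 0.0348).

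Hmgcs1 had the smallest p. At high density it was at 423 CPM untreated, 812 CPM under poly(I:C) and 340 CPM under AO, and at low density at 307, 589 and 228 CPM. The log2 difference was 0.50 (SE 0.06, adjusted p = 9.72e-05). Insig1 was at 198, 465 and 309 CPM at high density and 144, 361 and 179 CPM at low density, a difference of 0.54 (SE 0.09, adjusted p = 0.00126). Both genes were higher at high density in each of the 3 conditions.

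Dhcr7 had the largest difference, 0.61 (SE 0.09, adjusted p = 0.000914), with 57.3, 84.9 and 49 CPM at high and 42.7, 51.8 and 30.1 CPM at low density. Mvd differed by 0.60 (SE 0.11, adjusted p = 0.00226), at 33.7, 73.5 and 37.3 CPM against 22.9, 55 and 19.9 CPM. Cyp51 differed by 0.44 (SE 0.05, adjusted p = 0.00022), Fdft1 by 0.45 (SE 0.06, adjusted p = 0.000395) and Sqle by 0.34 (SE 0.06, adjusted p = 0.00179). These 5 genes were higher at high density in every condition, untreated, poly(I:C) and AO.

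Idi1 (0.32), Lss (0.32), Msmo1 (0.23), Acat2 (0.22), Sc5d (0.22), Srebf2 (0.19) and Srebf1 (0.25) also passed. Of the fatty acid genes, Fads1 differed by 0.26 (SE 0.05, adjusted p = 0.00596) and Scd1 by 0.25 (SE 0.06, adjusted p = 0.0128), from 534, 903 and 502 CPM at low to 703, 1003 and 579 CPM at high density. Fasn differed by 0.01 (SE 0.06, adjusted p = 0.924). It was at 1115, 1912 and 858 CPM at high and 996, 1996 and 900 CPM at low density, with the order reversed between untreated and treated cells. Acaca was the 1 member below 0 (-0.06). Tm7sf2, Hsd17b7, Fads2, Stard4, Scd2, Fdps, Pmvk, Acly, Mvk, Ebp, Nsdhl, Elovl6 and Scap, with differences of 0.05 to 0.45, did not pass. Without the AO libraries 8 members passed, and no share of all genes is given for that fit. Those that passed whichever treatment was left out were Hmgcs1, Cyp51, Fdft1, Dhcr7, Insig1, Sqle and Mvd.

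**Figure D5:**
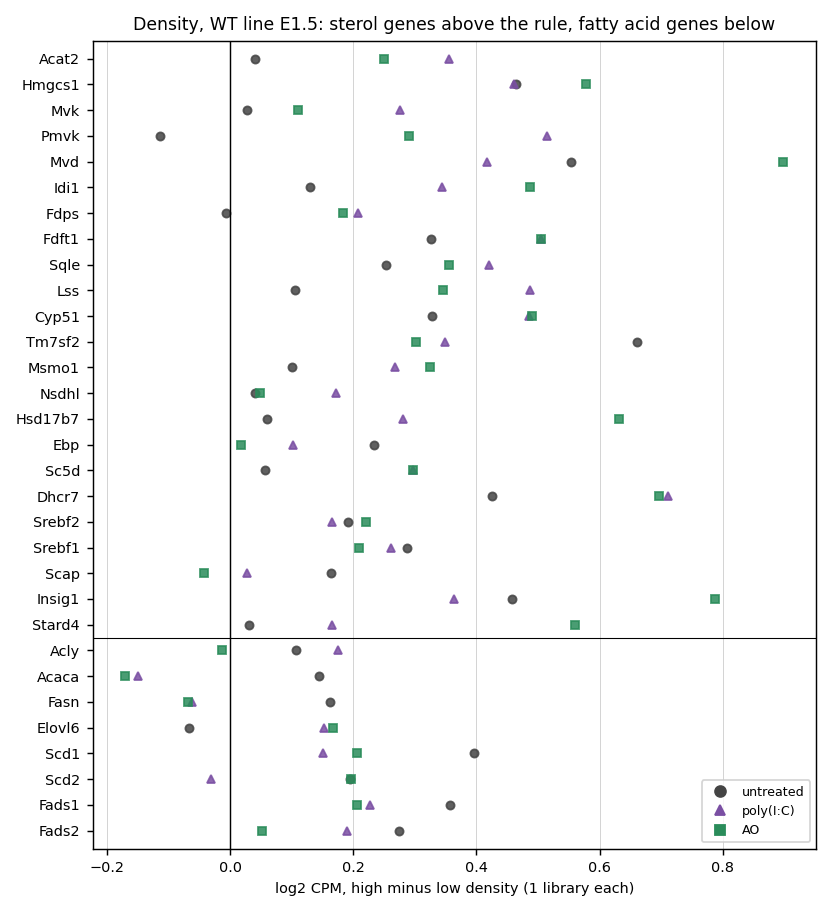
Difference in log2 CPM between the high-density and the low-density library of WT line E1.5 for each member, untreated (circles), under poly(I:C) (triangles) and under AO (squares), 1 library each. Sterol genes lie above the rule and fatty acid genes below it. Hmgcs1 lies between 0.46 and 0.58 in all 3 conditions, and Fasn between -0.07 and 0.16.

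The treatment responses of E1.5 were read at each density without a test. The sterol median under poly(I:C) was 0.73 at high, 0.48 at low and 0.57 at unlabelled density, and the fatty acid median 0.51, 0.58 and 0.42. Under AO the sterol median was 0.18, 0.08 and 0.00, and the fatty acid median -0.30, -0.07 and -0.10. Msmo1 rose by 1.19, 0.97 and 0.94 under AO, and Hmgcs1 was lower by log2 changes of -0.32, -0.43 and -0.55. The sterol median stood above the fatty acid median under AO at each density.

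Other genes of lipid metabolism were read in the same fits, without the block except where it is named. Of all genes, 9.91% rose and 11.8% fell under poly(I:C) (19.8% and 19.6% with the block), and 17% rose and 16.7% fell under AO (23.6% and 26.8% with the block). Of 9 genes of sterol sensing and SREBP processing, 0 rose and 5 fell under poly(I:C), against 9.91% and 11.8% of all genes. Insig2, the second Insig, fell by 0.46 (SE 0.06, adjusted p = 1.56e-05), while Insig1 rose. The site 2 protease of SREBP, Mbtps2, fell by 0.45 (adjusted p = 0.00359) and Erlin2 by 0.39 (adjusted p = 0.00401). Under AO 3 rose and 2 fell, among them Erlin1 (0.62, adjusted p = 8.96e-05) and Erlin2 (-0.42, adjusted p = 0.00106), and Insig2 changed by -0.07 (adjusted p = 0.472). The medians of the list were -0.33 and 0.09.

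Of 10 tested genes of sterol efflux, esterification and oxysterols, 1 rose under poly(I:C), a share near the 9.91% of all genes: Ch25h, the 25-hydroxylase of cholesterol, which rose by 2.23 (SE 0.33, adjusted p = 3.23e-05). In WT lines it went from 3.97, 2.28 and 2.17 CPM to 9.05, 13.2 and 21.3 CPM, and it was higher in all 10 lines. With the block 4 of the 10 rose, against 19.8% of all genes. Abca1, the cholesterol exporter, changed by -0.22 (adjusted p = 0.587), and Npc2 (0.17, adjusted p = 0.185) and Lpcat3 (0.22, adjusted p = 0.359) did not pass. Under AO, 2 rose and 3 fell. Abca1 fell by 1.24 (SE 0.24, adjusted p = 0.000261), from 107, 124 and 163 CPM to 38.7, 54.9 and 71 CPM in WT lines, and Mylip, a ubiquitin ligase, fell by 0.62 (adjusted p = 0.00335). Soat1, which esterifies cholesterol, rose by 0.46 (adjusted p = 0.00761), and Ch25h by 0.97 (adjusted p = 0.0235).

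Among 18 other genes of fatty acid and glycerolipid synthesis, 6 rose and 0 fell under poly(I:C), against 9.91% and 11.8% of all genes. The smallest p were those of Aacs, the acetoacetyl-CoA synthetase (0.83, adjusted p = 0.000116), Hacd2 (0.55, adjusted p = 0.00394) and Dgat2, a triglyceride synthase (0.68, adjusted p = 0.0103). Acss2, the cytosolic acetyl-CoA synthetase, rose by 0.75 (adjusted p = 0.0305). Under AO 2 rose and 1 fell: Dgat2 (0.62, adjusted p = 0.0109), Elovl1 (0.22, adjusted p = 0.016) and Agpat2 (-0.44, adjusted p = 0.00214). Acss2 changed by 0.14 (adjusted p = 0.708). With the block, 6 rose and 2 fell under AO, against 23.6% and 26.8% of all genes.

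Of 13 genes of fatty acid oxidation, 1 rose and 2 fell under poly(I:C), shares near the 9.91% and 11.8% of all genes: Hadha (0.43, adjusted p = 0.000955), Acadm (-0.37, adjusted p = 0.0163) and Cpt2 (-0.37, adjusted p = 0.0395). With the block, 4 rose and 2 fell, against 19.8% and 19.6%. Under AO 2 rose and 4 fell, against 17% and 16.7%, with the mitochondrial carnitine transferase Cpt2 at -1.23 (SE 0.13, adjusted p = 1.32e-07) and the dehydrogenase Acadm at -0.83 (adjusted p = 2.9e-06). Of 10 genes that use isoprenoids beside the sterol branch, 2 rose and 1 fell under poly(I:C), namely Pdss2 (0.36, adjusted p = 0.00711), Pdss1 (0.35, adjusted p = 0.00745) and Nus1 (-0.29, adjusted p = 0.0111). Under AO 2 rose and 0 fell, with Fnta (0.32, adjusted p = 0.00494), Ggps1 (0.31, adjusted p = 0.0192) and, not passing, Pdss2 (0.23, adjusted p = 0.0556).

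At high density, where 8.62% of all genes were higher and 8.41% lower, 3 of 9 tested efflux and oxysterol genes were higher and none lower: Npc2, the lysosomal cholesterol carrier (0.49, adjusted p = 8.9e-05), Ch25h (1.51, adjusted p = 0.000471) and Lpcat3 (0.35, adjusted p = 0.00421). Abca1 differed by 0.33 (adjusted p = 0.0599). Of 17 tested genes of other fatty acid and glycerolipid synthesis, 4 were higher and none lower, led by Lpin1 (0.85, adjusted p = 9.52e-05), Elovl5 (0.34, adjusted p = 0.00397) and Dgat1 (0.46, adjusted p = 0.0212), and Acss2 differed by 0.36 (adjusted p = 0.0852). Of the 9 sterol-sensing genes, Pgrmc1 was lower (-0.31, adjusted p = 0.00291) and Rnf145 higher (0.18, adjusted p = 0.047), while Mbtps1 (0.18, adjusted p = 0.0524) and Insig2 (0.19, adjusted p = 0.194) did not pass. Of the oxidation genes, 1 of 13 was lower, a share near that of all genes, Hadhb (-0.29, adjusted p = 0.0185), ahead of Hadha (-0.12, adjusted p = 0.303). Of the isoprenoid genes, 0 of 10 passed, with Pdss1 (-0.31, adjusted p = 0.076), Pdss2 (-0.35, adjusted p = 0.0787) and Nus1 (-0.17, adjusted p = 0.0833) nearest.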

How the data were processed

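RNA of 36 libraries was measured by sequencing. The authors deposited expected counts per gene, which RSEM estimates and which can hold fractions, with a table for each library. Per the submitters' processing notes, STAR, RSEM and the mm10 genome were used, with versions and settings left out there. RNA came from columns and stranded mRNA libraries, per the labels' protocols. RSEM shares reads between similar genes, so near copies such as Scd1 and Scd2 are less certain. Which annotation release served for counting is not given in the sources used here.

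Each expected count was rounded to a whole number. Identifiers were matched to GENCODE vM21 (49326 of 49585 genes), which gave symbols and the transcript lengths behind CPM per kb. CPM used TMM factors. The 30 libraries without a density label were fitted together in edgeR 4.0.16 (R 4.3.3, limma 3.58.1) with 1 coefficient per group, filterByExpr (minimum count 10, minimum total 15) and the quasi-likelihood F test, so the spread is pooled over 9 groups. The Benjamini-Hochberg adjustment ran over 13364 genes, and a gene passed at an adjusted p under 0.05. Density was fitted in the 9 libraries of line E1.5 with treatment as a term (12229 genes, 4 residual degrees of freedom). Changes within a line are differences of log2 CPM with a prior count of 2.

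Libraries share a line across treatments, and the 30 pairs of libraries of 1 line deviated together from their group means (correlations 0.342 to 0.765), so line was also fitted as a block. No 2 replicates agreed within sampling noise (chi-square per degree of freedom 5.61 to 65.7). Alternatives were RLE factors, no filter, DESeq2 1.42.0, the compared groups only, an E1 or E2 covariate and each line left out. Leaving out E2.6 and E1.4 together, the block with a line left out, and thinned density libraries were added after seeing the data.

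The members and lists were chosen with earlier results of these data known. All 31 members are named. Given in full, with the value in each line or the lowest, median and highest of the 10 lines, are up to 10 members per comparison that passed, by smallest p, and Srebf1, Srebf2, Insig1, Scd1, Fasn, Hmgcs1, Sqle and Idi1. Lists are given as counts with the 3 smallest p and Ch25h, Abca1, Insig2 and Acss2, except for a few values that are not reported here.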

Additional observations from a re-analysis of the deposited data

Results flagged for a closer look

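Dixon's test at the 95% level was run on the 4 het lines of each member and condition and on the 10 per-line changes of each treatment, and chance flags about 1 in 20 such groups. Of 93 levels 10 stood apart, all of them low values of het line E2.6. Untreated, these were Srebf2 at 117 CPM, Srebf1 at 93.5 CPM, Insig1 at 56.1 CPM, Acaca at 184.9 CPM, Fads1 at 152.7 CPM and Fads2 at 61.1 CPM. Under poly(I:C) it was Fads1 at 166.6 CPM, and under AO Acaca at 148.3 CPM, Scd1 at 159.2 CPM and Fads2 at 50.1 CPM.

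Of 62 sets of per-line log2 changes 21 held a line that stood apart, 15 times E2.6 and 6 times hom line E1.4. Under poly(I:C), E2.6 was low for Acat2 (-0.43), Hmgcs1 (-0.065), Idi1 (-0.053), Cyp51 (0.059), Msmo1 (0.056), Sc5d (-0.21), Insig1 (-0.11), Acly (-0.16) and Fads1 (0.12), and E1.4 was high for Stard4 (0.88), Acaca (0.97) and Elovl6 (0.60). Under AO, E2.6 was low for Idi1 (-0.55), Cyp51 (0.022), Msmo1 (0.44), Insig1 (-0.55), Elovl6 (-1.11) and Scd2 (-0.90), and E1.4 was low for Srebf2 (-0.53), Fads1 (-0.18) and Fads2 (-1.40). The levels and changes of a line come from the same libraries, so these are not separate observations.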

How the results depend on the processing

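Counts are members that passed, in either direction. Where the share of all genes in a fit is not given above, its count cannot be set against that share. With line as a replicate block, poly(I:C) counts were 29 for the mean of genotypes (11 without it), 23 in WT, 17 in het and 22 in hom (0 in each without it), and AO counts were 18 for the mean (4 without it), 7 in WT (0), 8 in het (1) and 9 in hom (1). The block changed no call of a difference between genotypes' responses. On the compared groups only, the counts were 14 for poly(I:C) in WT, 2 for AO in WT and 0 for AO in het and in hom. With lines E2.6 and E1.4 both left out, a choice made after seeing the data, they were 28, 20, 12 and 5 for poly(I:C) (mean, WT, het, hom) and 12, 4 and 4 for AO (mean, WT, het). With the block as well, they were 28 for poly(I:C) in het and 14, 20 and 17 for AO in WT, het and hom. Leaving out 1 line gave 6 to 29 for poly(I:C) and 2 to 11 for AO over the genotypes, 0 to 5 for poly(I:C) in het, 0 to 3 for AO in het and 0 for AO in hom. With the block, leaving out 1 line gave 11 to 14 for poly(I:C) in WT, 6 to 20 in het, and 2 to 3, 5 to 10 and 4 to 12 for AO in WT, het and hom. High density gave 8 to 12 with 1 treatment left out. RLE factors, no filter, DESeq2 and the E1 or E2 covariate, where it could be fitted, kept every count within 1.5 times, and all genotype comparisons stayed at 0. No member that passed without the block reversed its direction under another setting. Het averages that did not pass did: without E2.6 the median difference from WT turned from -0.17 to 0.05 untreated and from -0.11 to 0.09 under AO. The causes of these shifts were not tested. With E2.6 and E1.4 left out, the WT libraries stayed the same, while the filter, the TMM factors and the pooled spread were estimated anew. Lines are nested in genotype, so no block could be fitted for genotype differences. Precision was limited by 3 or 4 lines a group and, for density, by 1 line.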
